A study of Mus musculus with 10 samples.

Results

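Mast cells are tissue-resident leukocytes that store histamine and a set of proteases in heparin-rich granules and release them when IgE bound to its receptor is cross-linked. Their growth and survival depend on the receptor tyrosine kinase KIT and its ligand, and the factor GATA2 is needed for their development. Mouse mast cells of connective tissue, such as skeletal muscle and skin, are known for tryptases, the chymases encoded by Cma1 and Mcpt4 and carboxypeptidase A3, while the chymases encoded by Mcpt1 and Mcpt2 are known from mucosal mast cells.

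The genes described are 10 of the 56750 features of a bulk RNA count table, taken by symbol: the tryptase genes Tpsab1 and Tpsb2, the chymase genes Cma1 and Mcpt4, Cpa3, Hdc, the IgE receptor genes Fcer1a and Ms4a2, Kit and Gata2. They were chosen as mast cell genes on the values of these same tumors, so their differences between groups are given as a description, without a test. Of the 10 genes, 9 passed the filter on low counts, and Ms4a2 did not. Whole tumors were sequenced, so fewer mast cells and less RNA per mast cell cannot be told apart.

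The study compared sarcomas of 2 mouse models. The dFLEx group (dFLEx CDS +/-) held 3 tumors, named 170019, 170024 and 170025. In these mice a CIC::DUX4 fusion in the Rosa26 locus is driven by the ubiquitous CAG promoter once Cre and FLP recombinase have acted, and young adult mice received plasmids encoding both by injection and electroporation of the calf muscle. The KP group, whose mice carry a floxed p53 allele (p53fl/fl), held tumors 3800 and 3802, and the sources used here give no site, age or recombinase delivery for these 2 tumors. Labels and methods name no mouse strain for either group. The RNA of a tumor was split into duplicate libraries, and 9 libraries were analysed: 2 per tumor, except for 3802 with 1. The duplicates are technical, and the tumor was the replicate.

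Library totals ran from 20503474 to 46302223 counts. Levels below are CPM (counts divided by the TMM-scaled library total), from the summed counts of a tumor, and comparisons of levels between genes are per kilobase of exon (RPKM). Tumor 3802 stood apart in having the lowest total but the most features with a count (36904, against 24280 to 31768 in the other libraries). Summed over 1546 olfactory and vomeronasal receptor genes, which are not expected in a sarcoma, its level was 0.107 RPKM, against 0.00278 to 0.0240 RPKM in the other tumors. All 10 mast cell genes lay above this level in the other 4 tumors, and 9 did in 3802, where Ms4a2 was at 0.407 times it. Where a gene's difference leans on 3802, the value without it is given.

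Among the 9 tested mast cell genes the widest difference was in Tpsab1, and the reference sequence of this gene is printed first because it differs from that of its neighbor Tpsb2 at a splice site. Tpsab1 encodes the tryptase mMCP-7 and Tpsb2 the tryptase mMCP-6, and both lie on chromosome 17, at 25562219 to 25564536 on the minus strand and at 25585279 to 25588072 on the plus strand (GRCm39, coordinates of the deposited table). In the canonical GENCODE M39 transcripts, exon 2 of Tpsab1 (25564024 to 25564189) and exon 3 of Tpsb2 (25585734 to 25585899) are both 166 bases long. The lines give the last 10 bases of each exon and the first 10 of the following intron in the reference, 5′ to 3′ on the strand of the gene (chr17:25564014-25564033 minus and chr17:25585890-25585909 plus), with the first 2 intron bases in capitals.
Tpsab1 exon 2 donor: gtgtgggaccATgagtctac
Tpsb2 exon 3 donor: gtgtgggaccGTgagtctcc

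The exon bases were identical, and the intron bases differed by G1A and C9A, written as the Tpsb2 base, the position counted from the first intron base and the Tpsab1 base. Of 186688 introns in canonical protein-coding transcripts, 99.1% began with GT, as the Tpsb2 intron does, and 208 (0.111%) began with AT. The other 3 donors of Tpsab1 began with GT. The reference genome is that of C57BL/6J, a strain known to lack mMCP-7 because of this splice-site base, whereas other strains make the enzyme. No reads were examined here, so the base carried by these tumors is unknown, and strain and tumor model cannot be told apart.

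Tpsab1 was nearly absent from dFLEx tumors and abundant in KP tumors. It had 0.398 CPM in 170019 (95% Wilson interval 0.245 to 0.647), 0.347 in 170024 (0.224 to 0.536) and 0.680 in 170025 (0.521 to 0.887), from 16, 20 and 54 counts. In KP tumors it had 22.8 CPM in 3800 and 56.3 CPM in 3802, from 1696 and 1386 counts. Every dFLEx tumor was therefore far below both KP tumors, and the duplicates of 3800 had 22.77 and 22.79 CPM, while those of 170024 had 0.443 and 0.230 CPM, from 14 and 6 counts. The group means were 0.475 ± 0.180 CPM (SD, n = 3) and 39.5 ± 23.7 CPM (SD, n = 2), which differ 83.3-fold, and the log2 fold change (dFLEx against KP) was -6.36 (SE 0.77). It stayed between -6.75 and -5.55 with any tumor left out.

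Tpsb2, the neighboring tryptase gene, did not share this depletion. Its level was 10.9 CPM in 170019, 11.3 in 170024 and 3.63 in 170025, against 11.8 in 3800 and 30.6 in 3802. The first and second dFLEx tumors thus nearly reached 3800, 170025 was low and 3802 was high. The log2 fold change was -1.30 (SE 0.73) and fell to -0.44 without 3802.

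The tryptase genes were next set against each other within each tumor. Counts of Tpsab1 per count of Tpsb2 were 0.0365, 0.0307 and 0.188 in 170019, 170024 and 170025, and 1.93 and 1.84 in 3800 and 3802. The KP tumors, whose Tpsb2 levels differed, had nearly the same ratio, and every dFLEx tumor lay far below them. Tpsab1 made up 3.52% (95% Wilson interval 2.18 to 5.65), 2.98% (1.93 to 4.55) and 15.8% (12.3 to 20.0) of the tryptase counts in the dFLEx tumors, and 65.8% (64.0 to 67.6) and 64.8% (62.7 to 66.8) in the KP tumors. These intervals cover counting error only. Canonical Tpsab1 and Tpsb2 transcripts were 74.4% identical over 1137 aligned bases, and none of 1100 windows of 100 bases of Tpsab1, or of 1147 of Tpsb2, occurred exactly in another gene's transcripts.

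The chymase genes followed Tpsb2 rather than Tpsab1. Cma1 encodes mMCP-5 (chromosome 14, 56178908 to 56182132, minus strand) and had 6.62, 6.40 and 2.29 CPM in 170019, 170024 and 170025, against 5.91 and 16.6 CPM in 3800 and 3802. The groups overlapped, with 170025 lowest and 3802 highest, as for Tpsb2. Counts of Cma1 per count of Tpsb2 stayed between 0.50 and 0.63 in the 5 tumors, although the genes lie on different chromosomes and their levels ranged widely. The log2 fold change of Cma1 was -1.14 (SE 0.75), and -0.19 without 3802.

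Mcpt4 encodes mMCP-4, the mouse chymase closest in function to human chymase (chromosome 14, 56297086 to 56299770, minus strand). It had 16.2, 17.5 and 5.57 CPM in 170019, 170024 and 170025, and 7.64 and 33.4 CPM in 3800 and 3802. The KP tumors thus took a middle and the top place, and the direction depended on 3802: the log2 fold change was -0.65 (SE 0.81) over all tumors and 0.79 without 3802. Counts of Mcpt4 per count of Cma1 were 2.43 to 2.74 in dFLEx tumors and 1.29 and 2.01 in KP tumors, without overlap.

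**Figure D1:**
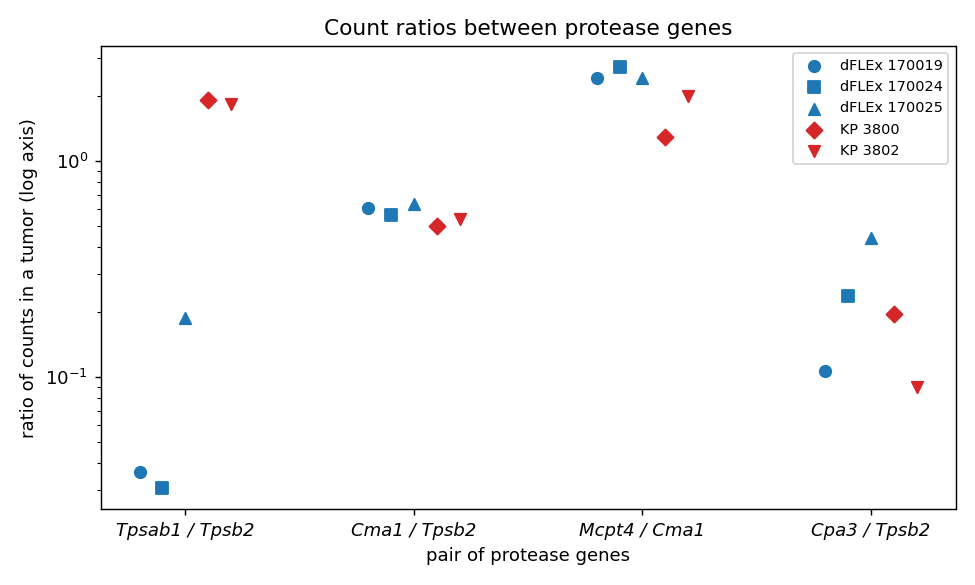
Count ratios of 4 pairs of protease genes (log axis) in each tumor, blue for dFLEx and red for KP. The ratio of Cma1 to Tpsb2 stayed between 0.50 and 0.63 in all 5 tumors, while that of Tpsab1 to Tpsb2 ran from 0.0307 to 0.188 in dFLEx tumors and was 1.93 and 1.84 in KP tumors.

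Cpa3, which encodes the granule carboxypeptidase A3 (chromosome 3, minus strand), was lower than Mcpt4, Tpsb2 and Cma1. It had 1.17, 2.69 and 1.60 CPM in 170019, 170024 and 170025, and 2.32 and 2.76 CPM in 3800 and 3802. The groups overlapped, at a log2 fold change of -0.48 (SE 0.74). Per kilobase, Mcpt4, Tpsb2 and Cma1 were above Cpa3 in every tumor: Cpa3 had 0.771 to 1.77 RPKM in dFLEx tumors and 1.53 and 1.82 RPKM in KP tumors, against 2.10 to 15.8 RPKM for these 3 genes in dFLEx tumors and 5.42 to 30.2 RPKM in KP tumors. Mcpt4 was the highest of the 10 genes per kilobase in 170019, 170024 and 3802, Kit in 170025 and Tpsab1 in 3800.

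Hdc encodes histidine decarboxylase, which makes histamine. It had 1.09, 1.89 and 0.630 CPM in 170019, 170024 and 170025, and 0.766 and 5.16 CPM in 3800 and 3802. Only 3802 stood out, and the log2 fold change turned from -1.29 (SE 0.98) to 0.67 without it. In 170025 the duplicates had 0.402 and 0.924 CPM, a 2.30-fold gap, where the median gap over 39 duplicate pairs of these genes was 1.14-fold.

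The IgE receptor genes were near the lower end of detection. Fcer1a, the IgE-binding alpha chain, had 0.647, 0.520 and 0.378 CPM in 170019, 170024 and 170025, and 0.484 and 0.488 CPM in 3800 and 3802, from 12 to 36 counts per tumor. The groups overlapped, and the log2 fold change, 0.08 (SE 1.13), changed sign with the scaling (-0.23 on library totals). Ms4a2, the beta chain, had 3 to 30 counts per tumor and was highest in 3800, at 0.403 CPM (95% Wilson interval 0.282 to 0.575). The other tumors had 0.0756 to 0.149 CPM, and in the first library of 170019 a count of 0 leaves room for up to 0.143 CPM. No difference in Ms4a2 can be read at this depth.

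Kit went against the proteases. The gene (chromosome 5, plus strand) encodes the receptor for stem cell factor and had 15.1, 21.1 and 54.2 CPM in 170019, 170024 and 170025, against 6.84 and 7.48 CPM in 3800 and 3802. All dFLEx tumors were above both KP tumors, and the KP tumors lay close together. The log2 fold change was 2.07 (SE 0.76), and 1.32 without 170025. Tumor 170025 had the most Kit and the least Tpsb2, Cma1 and Mcpt4, so that Kit per Tpsb2 (in CPM) was 14.9 there, 1.39 and 1.86 in the other dFLEx tumors and 0.578 and 0.244 in 3800 and 3802.

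Kit is also made by melanocytes and other cells outside the mast cell lineage. The summed level of 7 endothelial genes was 226, 323 and 569 CPM in 170019, 170024 and 170025. In 3800 and 3802 it was 153 and 89.4 CPM. In edgeR 0 of the 7 had an adjusted p under 0.05. At an unadjusted p under 0.05 there was 1, beside 10.6% of all tested genes. DESeq2 on tumor sums and limma-voom each called 1 of the 7, beside 1404 and 543 genes in all. The melanocyte list (5 genes) was at 1.98 to 2.71 CPM in dFLEx tumors and at 0.752 and 4.59 CPM in KP tumors, so the groups overlapped. The CIC::DUX4 transgene feature had 105, 202 and 423 CPM in 170019, 170024 and 170025, the same order as Kit (chosen after its values were seen). The part of other Kit-expressing cells or of the transgene in the Kit level was not tested.

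Gata2, the transcription factor, was higher in KP tumors. It had 3.23, 4.02 and 3.00 CPM in 170019, 170024 and 170025, and 31.3 and 8.66 CPM in 3800 and 3802 (chromosome 6, plus strand). Its dFLEx values were tightly grouped and both KP tumors were above them, but the KP tumors differed widely from each other. The log2 fold change was -2.55 (SE 0.70), and -1.18 without 3800. The KP tumor with the most Gata2 was thus 3800, whereas that with the most of all 5 proteases was 3802. Gata2 is also made by endothelial cells, whose list is given above, and their part was not tested. Of 3481 windows of 100 bases of its transcript, 108 (3.10%) also occur in a transcript of Spehd, and reads there could be lost in counting.

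**Figure D2:**
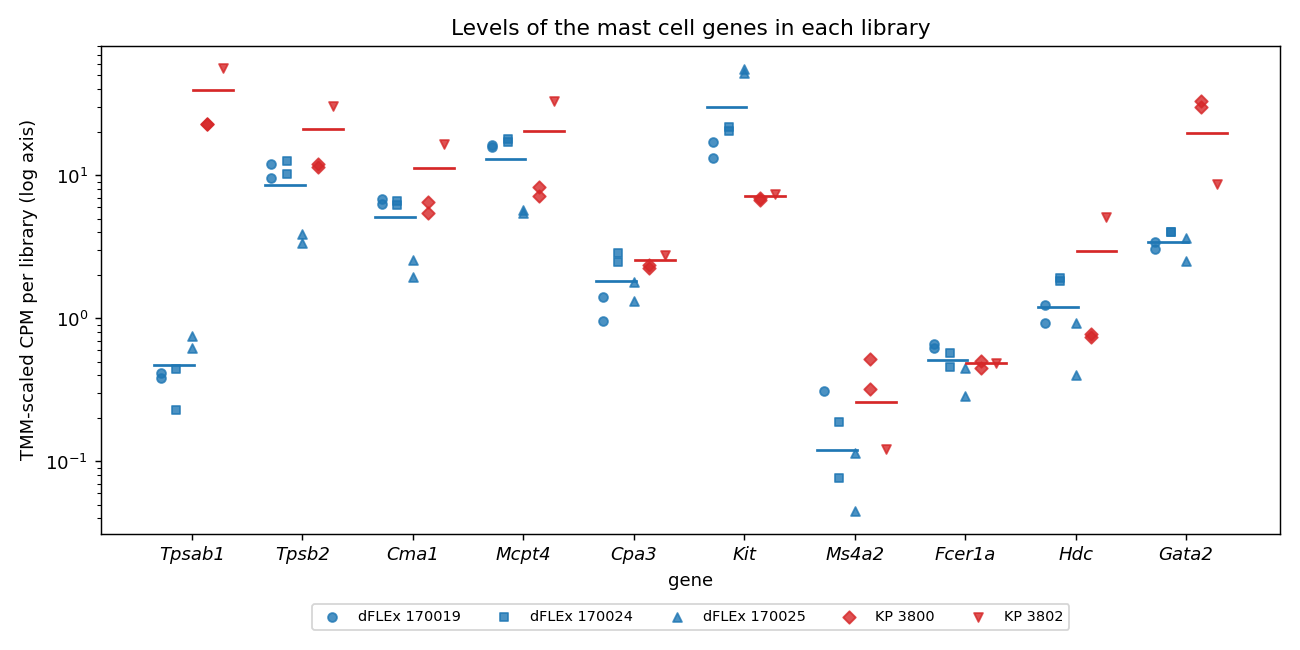
TMM-scaled CPM (log axis) of the 10 genes in each library, blue for dFLEx and red for KP, with a line at the mean over tumors; the library of 170019 with 0 Ms4a2 counts has no point. Tpsab1 and Gata2 lie lower and Kit higher in every dFLEx tumor, while the points of Cma1, Mcpt4, Cpa3, Fcer1a and Hdc overlap between groups.

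Across the 10 genes, the tested ones divided into 3 with every dFLEx tumor below every KP tumor (Tpsab1, Tpsb2 and Gata2), 1 with every dFLEx tumor above (Kit) and 5 that overlapped. Among all 24743 tested genes, 11.7% had every dFLEx tumor below and 13.7% every dFLEx tumor above. Because the genes were chosen on these tumors, nothing is read from the counts. Their median log2 fold change was -1.14, beside -0.18 over all tested genes, and -0.19 beside 0.34 without 3802, where 24138 of the tested genes again passed the filter.

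**Figure D3:**
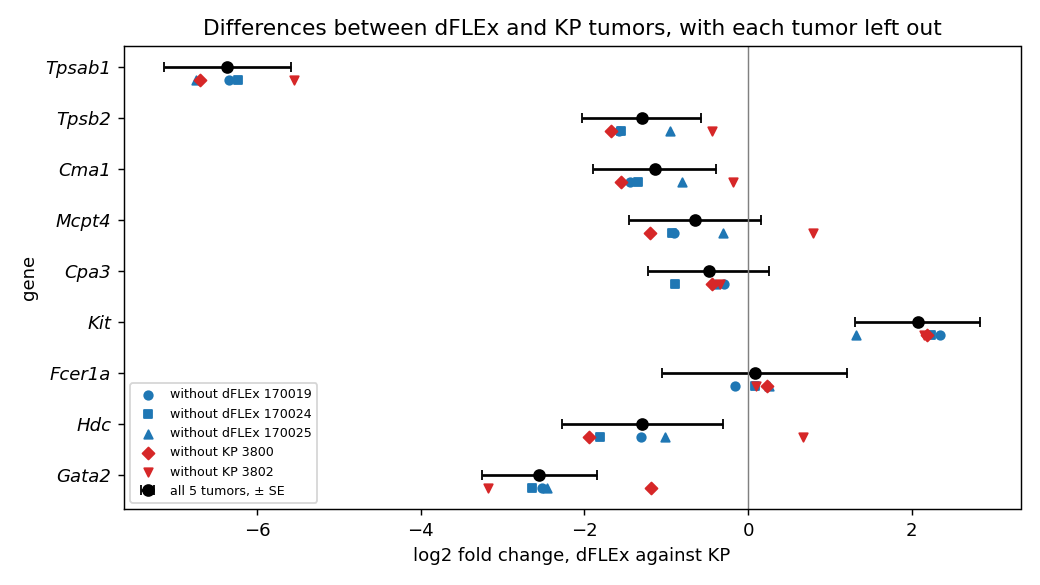
Log2 fold changes (dFLEx against KP) of the 9 tested genes, black with SE bars for all 5 tumors and colored for the fits with a tumor left out. Tpsab1 stayed between -6.75 and -5.55, while Mcpt4 and Hdc crossed 0 without 3802, and Fcer1a lay on both sides of 0.

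The level of leukocytes as a whole was set beside the mast cell genes. Ptprc, which encodes the leukocyte surface protein CD45, had 11.4, 14.2 and 22.9 CPM in 170019, 170024 and 170025, and 53.3 and 70.7 CPM in 3800 and 3802. Every dFLEx tumor lay below both KP tumors, at a log2 difference of -1.94 (SE 0.58). The difference did not pass edgeR's quasi-likelihood test (adjusted p = 0.256) and was not called by DESeq2, but was called by limma-voom. The 5 macrophage genes summed to 425 to 590 CPM in dFLEx tumors, against 845 and 3394 CPM in 3800 and 3802, so 3800 alone was also above every dFLEx tumor. The summed level of Tpsb2, Cma1, Mcpt4 and Cpa3 per unit of Ptprc, a ratio chosen after the values were seen, was 3.06, 2.66 and 0.572 in 170019, 170024 and 170025, and 0.519 and 1.18 in 3800 and 3802. The groups overlapped, and 170019 and 170024 were highest. Relative to Ptprc, the log2 fold changes were 0.64 for Tpsb2, 0.80 for Cma1, 1.29 for Mcpt4 and 1.46 for Cpa3, all turned in sign. On this scale Tpsab1 was at -4.43, Gata2 at -0.61 and Kit at 4.01. The part of the leukocyte content in the mast cell values was not tested.

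Basophils share several of these genes. The summed level of 4 basophil genes was 6.10, 2.98 and 2.12 CPM in 170019, 170024 and 170025. In 3800 and 3802 it was 2.03 and 7.36 CPM, so the sums overlapped. The genes themselves were mixed. The basophil protease gene Mcpt8 overlapped between groups (log2 fold change -1.07, SE 1.04). Ccr3 had 1.08 to 1.39 CPM in dFLEx tumors, against 0.108 and 1.02 CPM in KP tumors. Of the 4 genes, 2 had every dFLEx tumor above every KP tumor and 0 every dFLEx tumor below. Among all tested genes these shares were 13.7% and 11.7%. In edgeR, DESeq2 or limma-voom, 0 of the 4 had an adjusted p under 0.05. At an unadjusted p under 0.05 in edgeR there was 1, beside 10.6% of all tested genes. Genes of the surrounding tissue were summed likewise: the 5 muscle genes came to 5761, 23260 and 7238 CPM in dFLEx tumors and to 1048 and 2948 CPM in KP tumors, and the 4 fibroblast genes to 1486, 2800 and 5440 CPM in dFLEx tumors, against 809 and 1086 CPM in KP tumors. Without Col1a1, the other 3 fibroblast genes summed to 593, 548 and 335 CPM in dFLEx tumors and overlapped with KP tumors, at 132 and 643 CPM. None of these genes passed the adjusted threshold in edgeR. There, 4 of 5 muscle and 2 of 4 fibroblast genes had an unadjusted p under 0.05, beside 10.6% of all tested genes. DESeq2 and limma-voom each called 1 muscle gene and 0 fibroblast genes, beside 1404 and 543 genes in all.

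The genes around the tryptase pair were examined to see whether the Tpsab1 difference extended beyond it. Within 100000 bases of the pair on chromosome 17 (a window chosen after the values were seen) were 8 other protein-coding genes, of which 6 were tested. None had every dFLEx tumor below every KP tumor and 4 had every dFLEx tumor above, beside 11.7% and 13.7% of all tested genes. In edgeR 0 had an adjusted p under 0.05. At an unadjusted p under 0.05 there were 3, beside 10.6% of all tested genes. DESeq2 called 2 and limma-voom 0, beside 1404 and 543 genes in all. Cacna1h, a calcium channel gene, had 14.98, 34.9 and 156 CPM in 170019, 170024 and 170025, and 3.41 and 0.0813 CPM in 3800 and 3802. It was named after its values were seen.

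The wider mast cell program was followed in 7 further lists of 61 genes, of which 53 were tested. None passed an adjusted p of 0.05 in edgeR, where 45 of all 24743 genes (0.182%) did. At an unadjusted p under 0.05 there were 8, with 2 higher and 6 lower in dFLEx tumors, beside 10.6% of all tested genes. DESeq2 on tumor sums called 4 list genes, all lower in dFLEx tumors, beside 1404 genes in all. Calls by limma-voom numbered 3, with 1 higher and 2 lower in dFLEx tumors, beside 543 genes in all. The median log2 fold change of the lists together was -0.61, beside -0.18 over all tested genes, and -0.5 beside 0.34 without 3802.

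Among 15 further granule and surface genes, 12 were tested. Mcpt2, the mucosal chymase mMCP-2, was at 0.0498, 0.104 and 0 CPM in 170019, 170024 and 170025, and at 7.54 and 5.28 CPM in 3800 and 3802, from 2, 6, 0, 561 and 130 counts. All dFLEx tumors were far below both KP tumors, but the difference missed the threshold in edgeR (log2 fold change -6.96, SE 1.27, adjusted p = 0.0936). DESeq2 on tumor sums called Mcpt2 (adjusted p = 1.8e-08), and limma-voom did not. The gene lies in the chromosome 14 cluster of Cma1 and Mcpt4, at 56279498 to 56282099. Mcpt1, a mucosal chymase of the same cluster, ran the other way, at 1.74, 0.954 and 0.277 CPM in dFLEx tumors against 0.161 and 0 CPM in KP tumors (log2 fold change 3.44, SE 1.68, edgeR adjusted p = 0.561). Il1rl1, the receptor for IL-33, had 2.77 to 4.01 CPM in dFLEx tumors, against 4.35 and 20.2 CPM in KP tumors (log2 fold change -1.88, SE 0.75, edgeR adjusted p = 0.422), with a log2 fold change of -0.37 without 3802. Enpp3, an ectoenzyme displayed by activated mast cells and basophils, had 6.39, 11.8 and 20.5 CPM in the dFLEx group against 2.03 and 3.54 CPM in the KP group (log2 fold change 2.22, SE 0.77, edgeR adjusted p = 0.334).

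The ligands and chemokines of the growth and recruitment list, 9 genes with 7 tested, had a median log2 fold change of -2.19, and -1.32 without 3802. Il33, an alarmin that activates mast cells through Il1rl1, had 6.34, 6.45 and 18.6 CPM in 170019, 170024 and 170025, and 430 and 49.2 CPM in 3800 and 3802 (log2 fold change -4.52, SE 1.00, edgeR adjusted p = 0.134). Ccl5, a chemokine of T cells and other leukocytes, had 0.945 to 2.86 CPM in dFLEx tumors, against 33.5 and 54.2 CPM in KP tumors (log2 fold change -4.65, SE 0.73, edgeR adjusted p = 0.0744). DESeq2 on tumor sums called Ccl5 (adjusted p = 1.0e-07), Il33 (4.2e-05) and Ccl2 (0.0402), all lower in dFLEx tumors. In limma-voom, Ccl5 (adjusted p = 0.0171) and Il33 (0.0176) were called. Without 3802, the edgeR log2 fold changes were -7.2 for Mcpt2, -5.34 for Il33 and -4.24 for Ccl5. Kitl, the ligand of KIT, had 5.15, 5.91 and 18 CPM in dFLEx tumors, against 79.1 and 9.55 CPM in KP tumors (log2 fold change -2.19, SE 0.96, edgeR adjusted p = 0.482). Only 3800 lay above the dFLEx tumors, and 3802 lay within their range.

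The remaining 5 lists hold machinery that mast cells share with other cells. For IgE receptor signaling (10 genes), the median log2 fold change was -0.81, beside -0.18 over all tested genes. The adjusted threshold was passed by 0 genes in edgeR, DESeq2 or limma-voom. At an unadjusted p under 0.05 in edgeR there was 1, beside 10.6% of all tested genes. Fcer1g, the receptor's common gamma chain, had 42.6 to 62.6 CPM in dFLEx tumors, against 80.9 and 135 CPM in KP tumors. Lat2, an adaptor of this pathway, had the lowest adjusted p of the list, 0.301 in edgeR, with -1.89 on the log2 scale (SE 0.62). Of the 7 lipid mediator genes, Hpgds, the hematopoietic prostaglandin D synthase of mast cells, had 4.35 to 9.66 CPM in dFLEx tumors, against 12.2 and 18.3 CPM in KP tumors, whereas Ptgs1, cyclooxygenase-1, had 73.3 to 135 CPM and 38.0 and 10.6 CPM. The 6 heparin and proteoglycan genes, the 8 transcription factors and the 6 genes for histamine receptors and breakdown had 0 genes with an unadjusted p under 0.05 in edgeR and 0 called by DESeq2 or limma-voom. Over all tested genes, 10.6% had an unadjusted p under 0.05 in edgeR. Srgn, the core protein of granule proteoglycan, had 19.6 to 37.0 CPM in dFLEx tumors, against 40.8 and 52.0 CPM in KP tumors. Mitf, a factor that regulates Kit and protease genes, had 2.81, 5.44 and 12.9 CPM in dFLEx tumors, against 8.37 and 7.52 CPM in KP tumors.

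**Figure D4:**
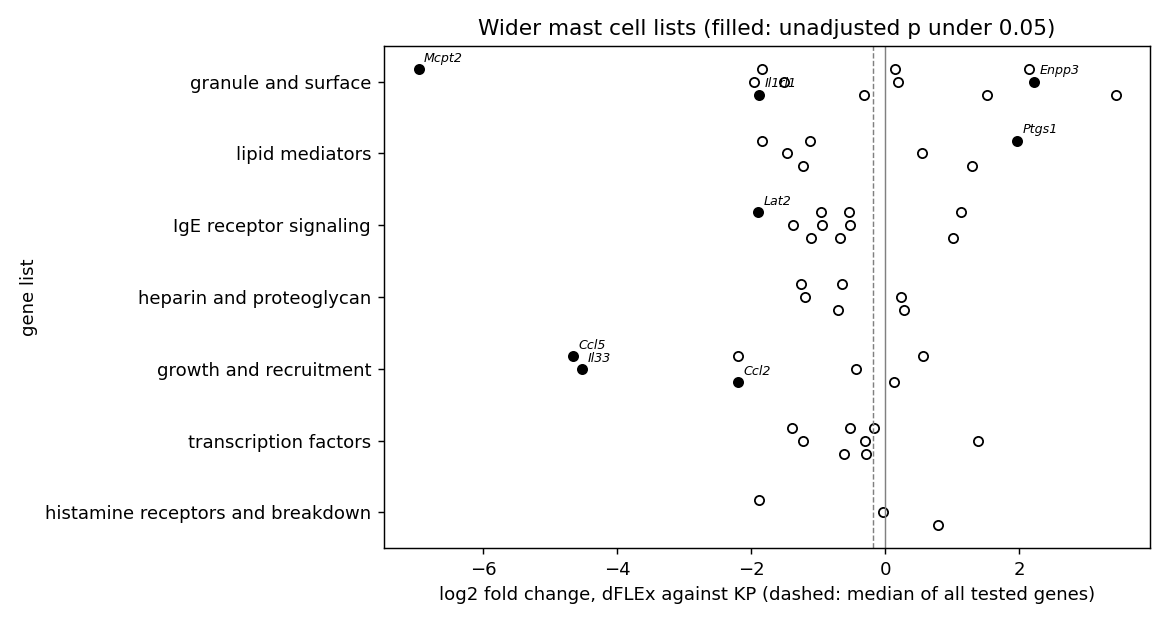
Log2 fold changes (dFLEx against KP) of the 53 tested genes of the 7 wider lists, with filled points at an unadjusted p under 0.05. The dashed line is the median of all tested genes, -0.18; Mcpt2, Ccl5 and Il33 lie farthest to the left.

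Over the 5 tumors, the genes most like the mean log2 level of the 10 were Syt11, Klf5, Celf4, H2-DMa and Stxbp2, with Pearson r from 0.995 to 0.999 among 13466 genes compared. With 5 tumors of unequal depth such values are a description only. The mean log2 level of the 10 was 1.71, 1.92 and 1.42 in 170019, 170024 and 170025, and 2.34 and 2.97 in 3800 and 3802. All 5 genes likewise had every dFLEx tumor below both KP tumors. They were picked for their likeness to this mean, so nothing is read from that separation. Stxbp2, which encodes a secretory protein of granule exocytosis, had 15.3, 16.3 and 10.2 CPM in dFLEx tumors, against 29.3 and 52.6 CPM in KP tumors.

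Promoters of Tpsab1 and of Cma1, a protease gene whose level did not follow that of Tpsab1, are shown as the 250 reference bases before the start of the canonical transcript. Because GATA factors bind in mast cells, the words AGATAA and AGATAG, as well as the words TGATAA and TGATAG, were searched on both strands, overlaps counted, and matches are in capitals. The windows are chr17:25564542-25564791 (minus) and chr14:56182133-56182382 (minus), GRCm39, each 5′ to 3′ on the strand of its gene.
Tpsab1: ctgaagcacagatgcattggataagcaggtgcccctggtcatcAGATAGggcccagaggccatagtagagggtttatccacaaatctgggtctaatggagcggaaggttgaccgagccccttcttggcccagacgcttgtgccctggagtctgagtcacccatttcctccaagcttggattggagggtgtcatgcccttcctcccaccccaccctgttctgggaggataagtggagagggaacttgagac
Cma1: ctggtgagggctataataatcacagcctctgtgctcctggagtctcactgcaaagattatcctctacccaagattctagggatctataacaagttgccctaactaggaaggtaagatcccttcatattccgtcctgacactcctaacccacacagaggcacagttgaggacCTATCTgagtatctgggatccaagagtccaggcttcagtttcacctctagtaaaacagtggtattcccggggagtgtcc

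Of the 10 genes, 7 had a match in this window, beside 26.1% of 21593 protein-coding promoters. Tpsab1 and Cma1 each held a single match. A match marks letters only, not a bound site.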

How the data were processed

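Total RNA from flash-frozen sarcomas was sequenced as paired-end, ribosomal RNA-depleted libraries. The authors trimmed reads with Trimmomatic (version 0.39), aligned them with STAR (2.7.10a) to GRCm39 with a contig for the construct, and deposited raw counts per gene made with featureCounts (Subread 2.0.3). Per the file headers, strand was ignored, both mates had to align, and each mate was counted as a read. Counting error is therefore larger than the intervals state. Reads with several alignments or over several genes were not counted. Of 10 labelled libraries 9 were analysed; duplicate 2 of 3802 was not.

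Symbols came from GENCODE M39 (98.7% of features matched). Counts were summed per tumor, filtered with filterByExpr, scaled by TMM and tested with glmQLFit and glmQLFTest of edgeR 4.0.16, with Benjamini-Hochberg adjustment over all genes. To get the SE, the size of the log2 fold change was divided by the root of its F statistic. A gene with 0 counts was given a limit of 3 counts. Scripts were tested on simulated data. DESeq2 (1.42.0) and limma (3.58.1) were alternatives, and intervals came from SciPy (1.17.1). Sequences were read from the GRCm39 genome with GENCODE M39, whose transcript starts can differ from the deposited gene coordinates.

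The genes and lists were chosen with earlier results of these data known. Named genes are the 10 chosen genes, list genes with an adjusted p under 0.05 or at least 1 CPM in a tumor, and the 5 genes most alike by Pearson r of log2(CPM + 0.5) among genes averaging 1 CPM or more with a log2 range of 1 or more. Cacna1h and the transgene were named after their values were seen. A further allele of the KP genotype is not reported here.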

Additional observations from a re-analysis of the deposited data

How the results depend on the processing

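Under 15 other settings (14 for Fcer1a), 124 of 134 log2 fold changes of the 9 tested genes kept their sign and moved by less than the spread between tumors. Sign changes were found for Fcer1a on library totals (-0.23), with upper quartile scaling (-0.05) and without 170019 (-0.16), and without 3802 for Mcpt4 (0.79) and Hdc (0.67). With a tumor left out, the values of Fcer1a ran from -0.16 to 0.25, those of Mcpt4 from -1.20 to 0.79 and those of Hdc from -1.94 to 0.67. Relative to Ptprc, an alternative chosen after seeing the data, the signs turned for Tpsb2 (0.64), Cma1 (0.80), Mcpt4 (1.29), Cpa3 (1.46) and Hdc (0.65). The cause was not tested.

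Beside the 45 genes called, the count was 880 without a filter, 80 for genes averaging 1 CPM or more, 11 under robust dispersion, 3344 with all libraries as independent samples in edgeR, 543 in limma-voom, 1404 in DESeq2 on tumor sums and 4828 in DESeq2 on all libraries. Leaving out a tumor gave 0 to 414 (0 without 170019 or 170024, 9 without 170025, 8 without 3800 and 414 without 3802), where the lone KP tumor is assumed to vary like the others. In the wider lists, where 0 genes were called, the count was 3 without a filter, 18 with all libraries in edgeR, 3 in limma-voom and 4 in DESeq2 on tumor sums, and it ran from 0 to 3 with a tumor left out. With the replicate block (the duplicate number as a term, over all libraries), 2476 genes and 11 list genes were called. In the 4 tumors with 2 libraries, deviations of the first library from its tumor mean were nearly uncorrelated between tumors. Over 6 pairs of tumors, r ran from -0.0326 to 0.0216. Because the duplicates are technical, these values cannot decide whether tumors were paired. Depth limits Ms4a2 and Fcer1a most.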
